A study of Mus musculus with 10 samples.

Results

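Aminoacyl-tRNA synthetases load each amino acid onto its transfer RNA, the step that fixes the meaning of the genetic code. Most animal cells keep separate cytosolic and mitochondrial enzymes, all encoded in the nucleus, and the gene names of the mitochondrial ones end in 2. Several cytosolic enzymes sit together in a multisynthetase complex held by scaffold proteins. The genes described here are all those of a deposited bulk RNA sequencing table of mouse bone marrow progenitors whose symbols mark them as a synthetase or as a scaffold protein, namely symbols of 1 capital letter followed by ars or ars2, with Eprs, Farsa, Farsb, Aimp1, Aimp2 and Eef1e1. They numbered 40 of 12791 genes, of which 20 encode cytosolic enzymes or their subunits, 17 mitochondrial enzymes and 3 scaffold proteins, and every standard amino acid had at least 1 cytosolic enzyme among them.

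The cells were hematopoietic progenitors of C57BL/6 mice, sorted as Lin-ckit+sca- cells, that is without lineage markers, with the c-Kit receptor and without Sca-1. The labels give 10 libraries, of which 3 came from naive mice without a tumor, 4 from KDR-negative and 3 from KDR-positive progenitors of mice carrying tumors of the mouse glioma line GL261, collected in week 4. KDR is a receptor of vascular endothelial growth factor, and cells were sorted by GFP knocked into its gene. About 20000 GFP-positive cells were used per sample, and the labels do not tie libraries to separate mice, so p-values measure only the spread between these samples, which may be technical. The authors' deposited table holds 2 comparisons and no value per library, so replicate spread and depth are unknown, and its columns name neither the groups nor the direction. The numerator group of a comparison is the one in which a positive log2 fold change means a higher level.

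The denominator levels derived from both comparisons matched closely. With equal weights of the groups, their median absolute deviation was 0.0087 on the log2 scale across 9044 genes, and the next closest pair of groups gave 0.064. The denominator group is therefore treated as shared, and the fold changes of the comparisons are given side by side without any overlap of calls. Group levels in CPM were computed from the deposited mean and fold change of a gene and carry no error. Their group weights were fitted so that the denominator levels of the comparisons matched best. For the 40 genes this level then differed between the comparisons by at most 2.38%, which is therefore no separate check.

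Markers of other cells differed between the groups of the first comparison. None of the genes behind the sort passed in the first comparison. The authors' deposited table gives log2 fold changes there of -0.60 (adjusted p = 0.128) for Kit, 0.43 (adjusted p = 0.402) for Ly6a, which encodes Sca-1, and 1.26 (adjusted p = 0.617) for Kdr. Their values in the second comparison of the authors' deposited table were 0.04, -0.02 and -1.11, each with an adjusted p of 1. All 7 macrophage markers were higher in the numerator group of the first comparison, with a summed derived level of 2901 CPM there, 108 CPM in the denominator group and 44.9 CPM in the numerator group of the second comparison. Likewise 4 of 4 megakaryocyte markers were higher (1280 CPM against 129 and 89.8 CPM), and 4 of 6 B cell markers were lower (169 CPM against 359 and 311 CPM). Both measured T and NK cell markers, Lck and Klrd1, were lower (2.46 CPM against 22.5 and 14.4 CPM), and Cd3e and Cd3g have no row. Of 4 erythroid markers, 3 were higher and 1 was lower (16207 CPM against 1093 and 1068 CPM). Of the 8 progenitor markers (2810 CPM against 783 and 800 CPM) the granule genes Mpo, Elane, Ctsg and Prtn3 were higher. Besides Kit and Ly6a, the others that did not pass were Cd34 at -0.69 (adjusted p = 0.110) and Myb at 0.09 (adjusted p = 0.911) in the authors' deposited table. In the second comparison 1 marker passed, the macrophage gene C1qa, which was lower. These marker calls and sums are on the deposited scale. With the CPM totals of the groups made equal, all fold changes of the first comparison would drop by 1.49 on the log2 scale. The 4 granule genes had means of 8.19 to 8.75 log2 CPM. Of all genes at 7 to 8 log2 CPM, 97.0% were called higher. A derived level cannot be 0, so whether a marker was absent from a group is unknown. The part of these cells in the synthetase values was not tested, and in bulk RNA fewer cells of a type and less RNA per cell cannot be told apart.

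Most synthetase genes did not pass the test in the first comparison. At the authors' adjusted p under 0.05, 3 of 40 genes (7.5%) passed with a higher level in the numerator group and 0 with a lower one, while over all genes 22.3% passed, 18.8% higher and 3.49% lower. Those that rose were Lars2, the mitochondrial leucine enzyme, Nars, the cytosolic asparagine enzyme, and Kars, the lysine enzyme. At an unadjusted p under 0.05 there were 6. The median log2 fold change of all 40 was 0.07, beside -0.13 over all genes. On the deposited scale 18 of 20 cytosolic genes lay above 0 (median 0.21), a sign that reverses with equal CPM totals and with the trend over level removed, and 16 of 17 mitochondrial genes lay below it (median -0.53). With the CPM totals of the groups made equal, all fold changes of the first comparison dropped by 1.49 on the log2 scale and the cytosolic median became -1.29, with 37 of the 40 genes called lower and 1, Lars2, higher, on approximate z values that 2 of them lack. The calls over all genes then turned from 2401 higher and 446 lower to 534 higher and 7288 lower.

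**Figure D1:**
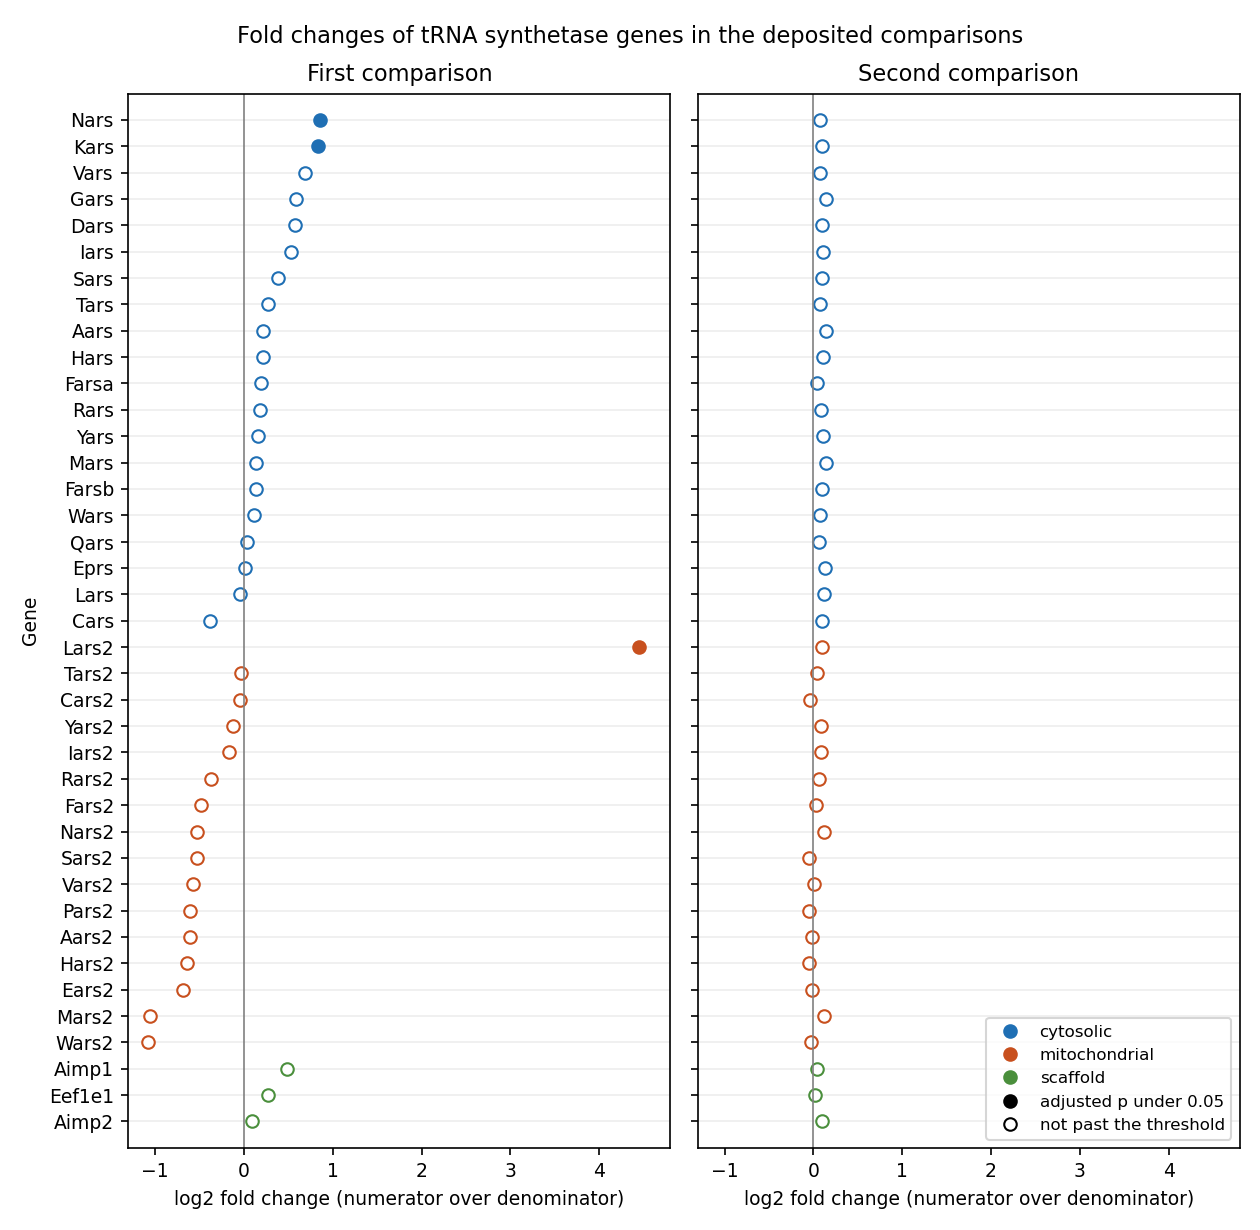
Log2 fold change (x axis) of 39 of the 40 genes (y axis, sorted within cytosolic, mitochondrial and scaffold genes) in the 2 comparisons of the authors' deposited table, with filled points for an adjusted p under 0.05. Lars2 stands at 4.45 in the first comparison, Nars and Kars are the other filled points, and all points of the second comparison lie between -0.05 and 0.14.

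Synthetase genes are known targets of ATF4, the transcription factor of the amino acid response, which binds C/EBP-ATF elements. Promoter windows from RefSeq (GRCm38.p6, 250 bases before to 50 after a start) were found for 30 of the 40 genes, among them Lars2 and Kars but not Nars. The letters TGATGNAA, the core of that element, were searched on both strands. They occur in 3.97% of all 32851 windows, in the windows of 5 of 13 cytosolic genes, of none of 14 mitochondrial genes and of none of the 3 scaffold genes. A match of each of the 5 genes is shown because it lies close to the start of a cytosolic enzyme gene. Capitals mark the 8 matched letters, and in all but Yars the match reads as its reverse complement.
Aars, chr8:111033840-111033869, plus strand, match from base 10 after the start: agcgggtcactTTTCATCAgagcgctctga
Gars, chr6:55037960-55037989, plus strand, match 30 bases before the start: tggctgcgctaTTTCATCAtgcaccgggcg
Iars, chr13:49682126-49682155, plus strand, match from base 8 after the start: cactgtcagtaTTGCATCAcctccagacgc
Tars, chr15:11399655-11399684, minus strand, match 15 bases before the start: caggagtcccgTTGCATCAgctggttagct
Yars, chr4:129189895-129189924, plus strand, match from base 4 after the start: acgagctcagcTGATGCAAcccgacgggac

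Cytosolic enzymes fall into the structural classes I and II, which are unrelated in fold. Among 10 class II genes, 2 were higher, a share (20%) near the 18.8% of all genes, and all 10 lay above 0 on the deposited scale, with a median of 0.33. Nars was derived at 129 CPM in the first numerator group, 71.5 CPM in the shared denominator group and 74.5 CPM in the second numerator group, and its log2 fold change passed, at 0.86 by the authors' deposited table (adjusted p = 0.016). Kars, whose gene also supplies the mitochondrial lysine enzyme, was derived at 136, 76.0 and 80.0 CPM in the same order, and the authors' deposited table gives a log2 fold change of 0.84 (adjusted p = 0.021). For both genes the first numerator group stood apart, at 1.81 and 1.78 times the denominator group, while the other groups were close together. This depends on the scale. Both genes were called lower with equal CPM totals and were not called with the trend over level removed. They were still called higher with the median of all genes at 0, on approximate z values. Gars, the glycine enzyme that also serves mitochondria, was derived at 100.2, 66.7 and 72.8 CPM and did not pass in the authors' deposited table (0.59, adjusted p = 0.150). Dars, the aspartate enzyme, had 0.57 in the authors' deposited table, at an adjusted p of 0.184. The serine enzyme gene Sars had 0.38, the threonine enzyme gene Tars 0.27, the alanine enzyme gene Aars 0.22 and the histidine enzyme gene Hars 0.22 in the authors' deposited table. Farsa and Farsb, the subunits of the cytosolic phenylalanine enzyme, had 0.19 and 0.13 there.

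Among 10 class I genes none passed, and the difference between the classes was not tested. Of these genes 8 lay above 0 on that scale, with a median of 0.13. Vars, the valine enzyme, came nearest, derived at 112 CPM in the first numerator group, 70.0 CPM in the denominator group and 73.1 CPM in the second numerator group, and the authors' deposited table gives a log2 fold change of 0.68 (adjusted p = 0.077). Iars, the isoleucine enzyme, stood at 0.53 (adjusted p = 0.170) in the authors' deposited table. Other class I values were small. In the authors' deposited table the arginine enzyme gene Rars had 0.18, the tyrosine enzyme gene Yars 0.16, the methionine enzyme gene Mars 0.14 and the glutamine enzyme gene Qars 0.04. Wars, the tryptophan enzyme known for its induction by interferon gamma, had 0.11 (adjusted p = 0.931) in the authors' deposited table. Eprs, which joins the glutamate and proline enzymes in 1 protein and is counted here in class I, had 0.01 in the authors' deposited table. In the authors' deposited table the cytosolic genes below 0 were Lars, the leucine enzyme, at -0.05, and Cars, the cysteine enzyme, at -0.38 (adjusted p = 0.546).

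The multisynthetase complex and the free enzymes gave similar medians. The 8 enzyme genes of the complex had a median log2 fold change of 0.16, with Kars as the only one past the threshold (12.5%). The 12 cytosolic genes outside it had 0.22, with Nars as the only one (8.33%). Both shares were below the 18.8% of all genes called higher. Among the scaffold genes, Aimp1, whose protein can also be cut and released as a cytokine, had 0.48 (adjusted p = 0.268) in the authors' deposited table, Eef1e1 0.27 and Aimp2 0.09. Derived levels of these 3 genes ranged from 63.9 to 90.2 CPM in the first numerator group, from 59.9 to 64.7 CPM in the denominator group and from 61.7 to 65.9 CPM in the second numerator group.

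Mitochondrial enzymes serve the translation of the few proteins encoded in mitochondrial DNA. Apart from Lars2, all 16 of their genes had a negative log2 fold change in the first comparison, from -1.08 to -0.03 with a median of -0.55, and none passed the test. Over all 17 mitochondrial genes the median of -0.53 became -0.15 with the trend over level removed and -2.02 with equal CPM totals. The median of all genes was also negative at 3 to 4 log2 CPM (-0.54) and at 4 to 5 log2 CPM (-0.31). At 5 to 6 log2 CPM it was 0.13, while the 4 mitochondrial genes there had a median of -0.09. Mars2, the methionine enzyme, was derived at 8.49 CPM in the first numerator group, 17.7 CPM in the denominator group and 19.3 CPM in the second numerator group, and the authors' deposited table gives a log2 fold change of -1.06 (p = 0.028, adjusted p = 0.105). Wars2, the tryptophan enzyme, was derived at 3.08, 6.48 and 6.43 CPM, with -1.08 (adjusted p = 0.538) in the authors' deposited table. Ears2, the glutamate enzyme, had -0.69 in the authors' deposited table. Closest to 0 were Tars2 at -0.03, Cars2 at -0.05, Yars2 at -0.13 and Iars2 at -0.17 in the authors' deposited table. Over these 16 genes the derived level had a median of 14.6 CPM in the first numerator group, 22.8 CPM in the denominator group and 23.3 CPM in the second numerator group, so the latter groups were nearly alike.

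Lars2 lay far on the other side. It was derived at 8864 CPM in the first numerator group, 405 CPM in the shared denominator group and 423 CPM in the second numerator group. Its log2 fold change of 4.45 (adjusted p = 2.9e-14) in the authors' deposited table is a 21.9-fold difference, and it made up 81.9% of the summed CPM of the 40 genes in the first numerator group against 19.3% in the denominator group. Among all genes its fold change ranked 131. Of 115 genes with a mean of at least 11 log2 CPM in the first comparison, 5 had a log2 fold change of at least 4. They were Lars2, the globin genes Hbb-b2 and Beta-s, the ferritin gene Ftl1 and Rn45s, the ribosomal RNA precursor. These cutoffs were not planned in advance.

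The Lars2 transcript shares short stretches of nearly identical sequence with other transcripts, and how reads from there were assigned was not examined. In the GENCODE M21 transcript of 3894 bases the coding sequence ends at base 2908. In the untranslated part beyond it, bases 3278 to 3349 matched a transcript of Gm15564 at 98.6% over 72 aligned bases, and bases 3163 to 3212 matched AA474408 at 96.0% over 50 bases, both in the same orientation. Neither gene has a row in the table. Rn45s was derived at 15343 CPM in the first numerator group, 439 CPM in the denominator group and 577 CPM in the second numerator group, and the authors' deposited table gives a log2 fold change of 5.13 (adjusted p = 3.0e-18). Rn4.5s, a small RNA gene, had 3.29 (adjusted p = 4.6e-12) in the authors' deposited table. Neither Rn45s nor Rn4.5s was among the genes found to share a stretch with Lars2. No sequence of the ribosomal RNA precursor was at hand for that search, so a match to it was not tested. What part reads from other transcripts have in the Lars2 value was not tested either. Stretches of at least 50 bases at 95% identity or more with transcripts of other genes were found for 16 of the 40 genes. Among them, Aimp2 overlaps Eif2ak1 and Mars overlaps Ddit3 on the opposite strand. Iars2 shares 2034 bases with Rab3gap2, and Hars shares 195 bases with Hars2, its partner in the histidine pair, both in opposite orientation. Aars shares 1326 bases with Exosc6, and Iars shares 1656 aligned bases with the pseudogene Gm4849. Counts of the genes with such stretches may be mixed. Nars and Kars had none.

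**Figure D2:**
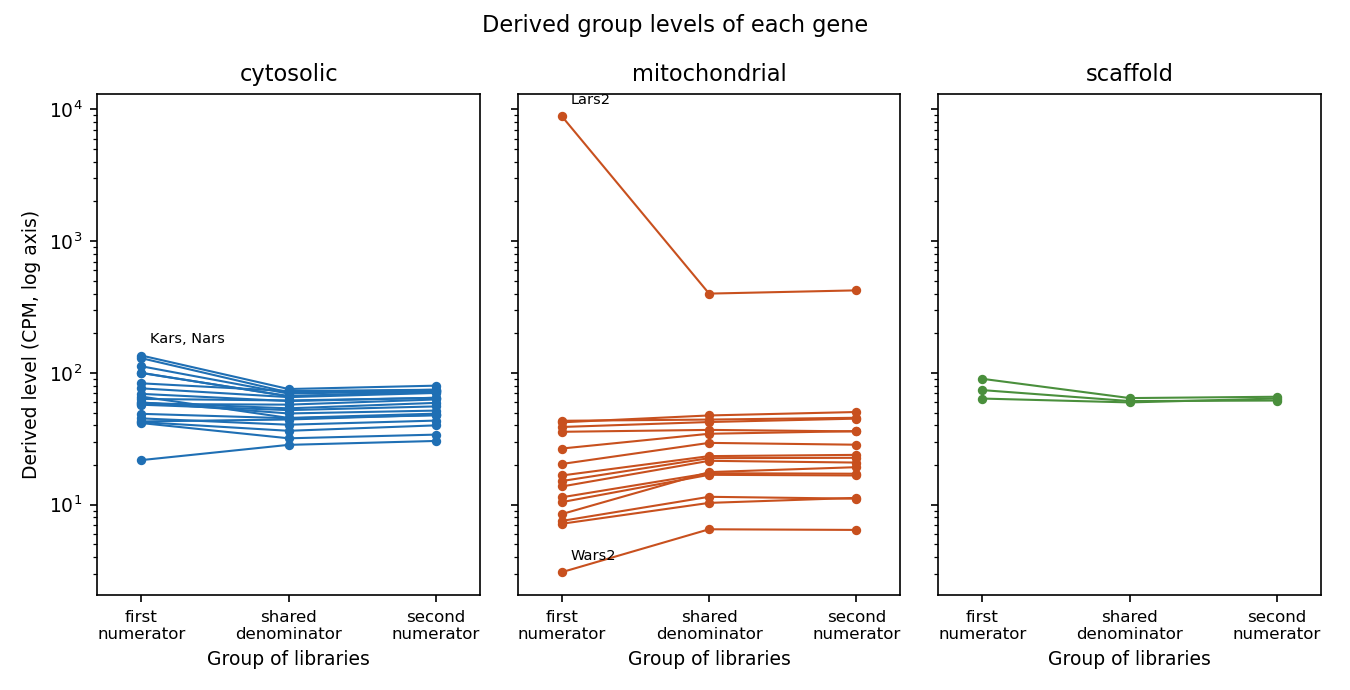
Derived level in CPM (log y axis) of 39 of the 40 genes in the 3 groups of libraries (x axis), with 1 line per gene, for 20 cytosolic, 16 mitochondrial and 3 scaffold genes; no error can be given, and the shared denominator is the geometric mean of its levels in both comparisons. Lars2 stands at 8864 CPM in the first numerator group and at 423 CPM in the second numerator group, with the shared denominator group close to the latter. On the deposited scale drawn here, the other mitochondrial lines lie lower in the first numerator group than in the denominator group. Most cytosolic lines lie slightly higher there, a direction that depends on the scale.

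Cytosolic and mitochondrial enzymes of the same amino acid were then set side by side in 17 pairs, with Eprs used for both glutamate and proline and Farsa for phenylalanine. The cytosolic gene had the higher log2 fold change in 15 of 17 pairs, with a median difference of 0.71, or 0.0033 with the trend over level removed. Wide gaps among these were found for asparagine (Nars over Nars2) at 1.38, valine at 1.26 and methionine at 1.20, and the narrowest were for tyrosine at 0.28 and threonine at 0.30. The pairs in which the mitochondrial gene was higher were cysteine, at -0.34, and leucine, where Lars and Lars2 differed by -4.50. These are differences between fold changes of single genes, for which the table allows no test.

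**Figure D3:**
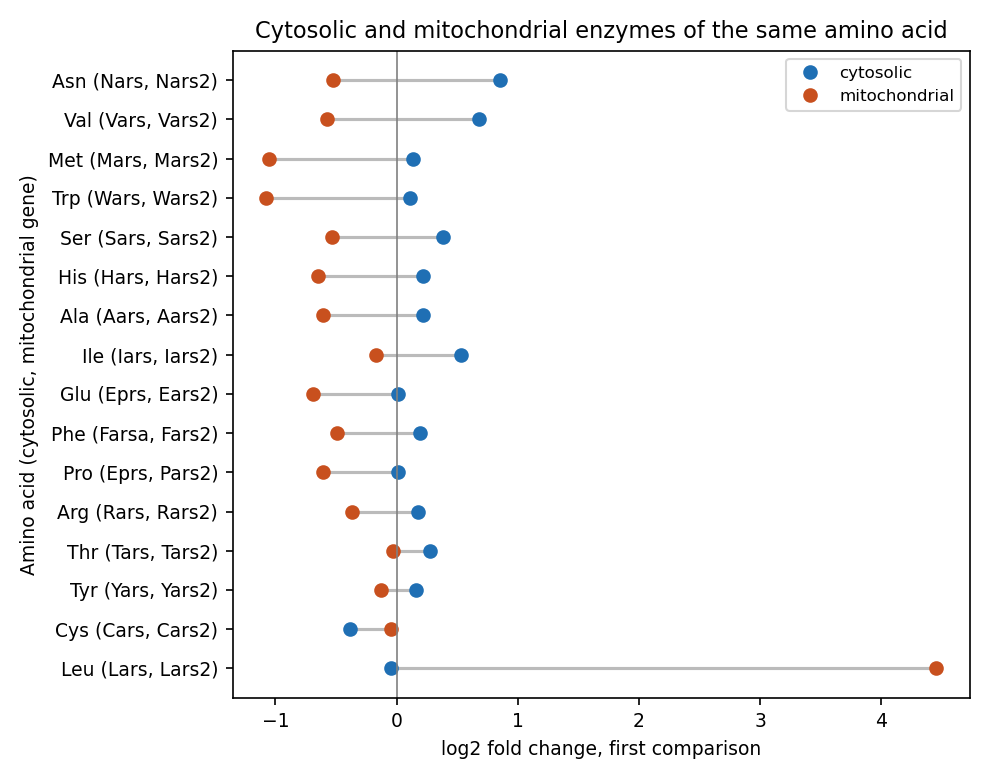
Log2 fold change in the first comparison (x axis) of the cytosolic and the mitochondrial gene of an amino acid (y axis, 16 of the 17 pairs joined by lines, sorted by their difference). The cytosolic point lies to the right in every pair drawn but cysteine and leucine, before any removal of the trend over level.

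The difference between compartments went along with the mean level of the genes. In the first comparison the fold change over all genes depended on the level, with a median of -0.54 at 3 to 4 log2 CPM, -0.31 at 4 to 5, 0.13 at 5 to 6 and 0.77 at 6 to 7. This level is the mean over both groups of the same comparison, so it shares values with the fold change. What part of the trend, and of its removal, comes from that was not tested. In CPM, which is not per length, the mean of the cytosolic gene was above that of its mitochondrial partner in 15 of 17 pairs. At 5 to 6 log2 CPM, 11 cytosolic genes had a median of 0.14 and 4 mitochondrial genes -0.09, beside 0.13 over 2396 genes. At 6 to 7 log2 CPM, 8 cytosolic genes had a median of 0.58 beside 0.77 over 1189 genes, and 2 of the 10 members there were called higher against 51.6% of all genes at that level. At 4 to 5 log2 CPM, 6 mitochondrial genes had a median of -0.55 beside -0.31.

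With the running median of all genes over level subtracted, 16 of 20 cytosolic genes lay below it (median -0.14), as did 15 of 17 mitochondrial genes (median -0.15) and all 3 scaffold genes. Within the 17 pairs 9 differences were then above 0 and 8 below. Kars (-0.15) and Nars (-0.09) also lay below it and were no longer called, whereas Lars2 stayed 2.44 above it. The other genes above it were Sars (0.40), Iars (0.21), Aars (0.20), Yars (0.10) and Nars2 (0.02).

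**Figure D4:**
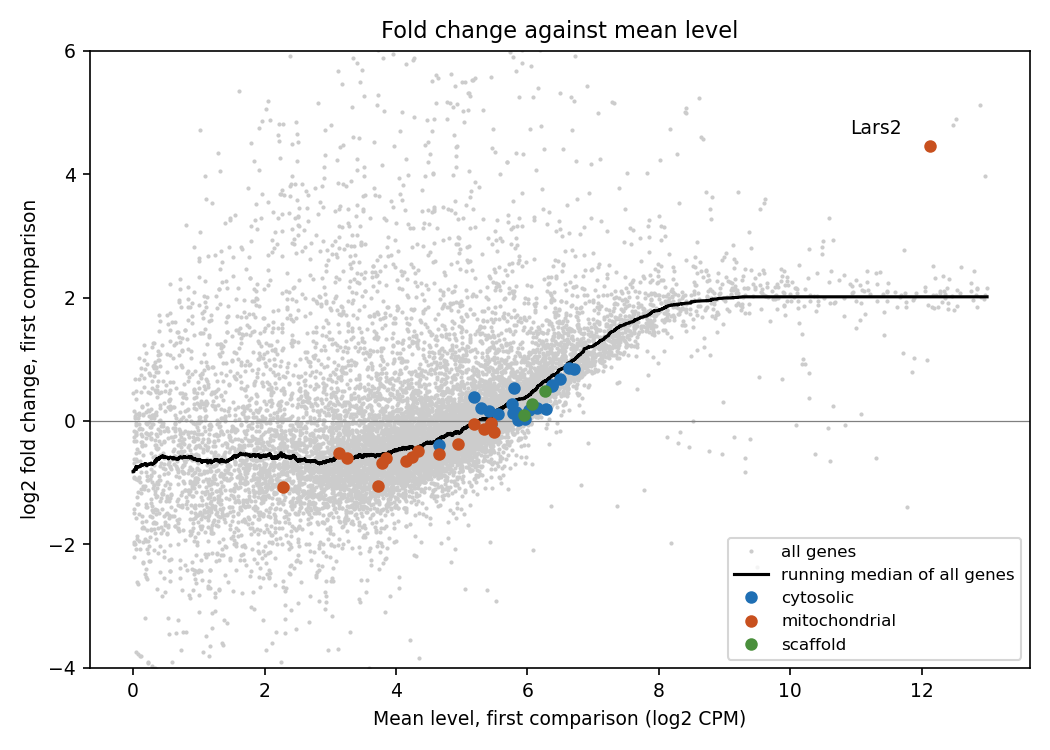
Log2 fold change against mean level in log2 CPM, both of the first comparison, for the genes within the plotted range, which cuts off the extremes (grey), with the running median of the genes nearest in level (line, flat at the upper end where the last genes form 1 window) and 39 of the 40 genes in color. Cytosolic and mitochondrial genes mostly lie in 1 band at or under the line, and Lars2 lies far above it.

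In the second comparison no synthetase or scaffold gene passed the authors' adjusted p of 0.05, and none had an unadjusted p under 0.05, while over all genes 0.109% passed, 0.0704% higher and 0.0391% lower. The smallest unadjusted p of the 40 genes was 0.614, for Mars, whose log2 fold change by the authors' deposited table was 0.14. All 20 cytosolic genes had a positive log2 fold change there, between 0.04 and 0.14 with a median of 0.10, beside 0.0013 over all genes, and 19 of them lay above the running median over level. Of the mitochondrial genes 10 were above 0 and 7 below, between -0.05 and 0.12, with a median of 0.03. Lars2 stood at 0.10 (adjusted p = 1) in the authors' deposited table. At the top of this narrow range were Gars at 0.14, Mars at 0.14, Aars at 0.14 and Eprs at 0.13 in the authors' deposited table, and Farsa at 0.04 was the lowest cytosolic one. No difference was detectable for any of these genes, which does not show that they were equal.

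The 5 genes with TGATGNAA in their promoter window (Aars, Gars, Iars, Tars and Yars, shown above) did not pass the test in either comparison. Their median log2 fold change in the first comparison was 0.27, from 0.16 for Yars to 0.59 for Gars, beside 0.17 for the 8 cytosolic genes whose window lacks the letters, which included Kars at 0.84. Relative to the running median over level, 3 of the 5 (Aars, Iars and Yars) and 1 of the 8 (Sars) lay above it. The E-box letters CACGTG, read alike on both strands and bound by MYC and MAX, occur in 7.15% of all windows and in those of Aars, Farsb, Iars, Tars and Ears2, so 3 genes hold both motifs. A match is a description of the letters and shows no binding.

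Other genes around the charging of transfer RNA were taken from lists of known pathway members. In the amino acid response list 9 of 31 measured genes were higher in the first comparison (against 18.8% of all genes) and none was lower, with a median of 0.19. The 4 with the smallest p were Eif4ebp1, a brake on translation initiation, at 1.51 (adjusted p = 2.7e-06) in the authors' deposited table, Slc3a2, the heavy chain of amino acid transporters, at 1.56, Phgdh, the first enzyme of serine synthesis, at 1.34, and Atf4 itself at 1.23 (adjusted p = 0.00021). Asns, the asparagine synthetase and a common readout of ATF4, had 0.07 (adjusted p = 0.972) in the authors' deposited table, Ddit3 0.04 and Psat1 0.46 (adjusted p = 0.310). The trend over level was not removed from the values of these lists. Eif4ebp1, Slc3a2, Phgdh and Atf4 had means of 6.58 to 8.70 log2 CPM. Of the other called genes, Shmt2 and Ppp1r15a had means of 6.43 and 6.09 log2 CPM. Slc7a11, Nupr1 and Cebpb lay lower, at 3.16, 3.49 and 5.10 log2 CPM. Over all genes, 8.29% were called higher at 3 to 4 log2 CPM and 16.1% at 5 to 6. At 6 to 7 log2 CPM it was 51.6%, and 97.0% at 7 to 8, a range below the 8.70 of Phgdh.

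Among 7 genes of the eIF2 kinases and of the sensing of uncharged transfer RNA, 1 was higher (14.3%, against 18.8% of all genes), Eif2s1, which encodes the phosphorylated subunit of eIF2, at 1.48 (adjusted p = 2.2e-05) in the authors' deposited table. Eif2ak4, which encodes the kinase GCN2 that senses uncharged transfer RNA, had -0.72 in the authors' deposited table, at an adjusted p of 0.264. None of the 16 measured accessory genes of charging and proofreading passed in the authors' deposited table, at a median of -0.13. They include Qrsl1 at -0.50, Pet112l at -0.39 and Gatc at -0.34, which encode the amidotransferase that makes mitochondrial glutamine transfer RNA in place of a glutamine enzyme. None of 22 genes of RNA polymerase III and its factors, which transcribe transfer RNA genes, passed, at a median of -0.29. For transfer RNA end processing 3 of 20 were higher (15%, below the 18.8% of all genes), Tsen15 at 1.68 and Tsen34 at 1.28, subunits of the splicing endonuclease, and Ssb, the La protein, at 1.01 in the authors' deposited table. In the second comparison none of the genes of these lists passed.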

How the data were processed

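Sequencing libraries were prepared from 0.1 ug of total RNA (Illumina TruSeq), per the labels' protocols. Bowtie 0.12.2 and mm8 are listed, with no role, per the submitters' processing notes. Not given in the sources used here were the counting program, its annotation and the test. Log2 fold changes and mean log2 CPM levels, and the p-values with their adjusted values, were deposited by the authors per gene and comparison; the log base is read as 2 from the values. Deposited adjusted p-values equal the Benjamini-Hochberg adjustment recomputed here. CPM totals over genes were 1414419 and 732013, so the scale has no fixed total.

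With no value per library, no new test was run, and the authors' calls stand. Group levels follow from mean and fold change with numerator weights of 0.48 and 0.59, which fitted the shared group best on a grid of 0.01. Calls under other scales use z values implied by the deposited p-values, an approximation. Transcripts were compared with blastn 2.17.0 (word size 25); Python 3.11.15 was used otherwise, and functions were tested on simulated data.

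All members may be named; of other lists, the 4 called genes with the smallest p. Other genes named (Asns, Ddit3, Psat1, Shmt2, Ppp1r15a, Slc7a11, Nupr1, Cebpb, Eif2ak4, Qrsl1, Pet112l, Gatc, Rn45s, Rn4.5s, Hbb-b2, Beta-s, Ftl1 and those sharing sequence) were chosen after their values were seen. So were the printed promoter stretches, because no called gene with a window holds the motif. Members and lists were chosen with earlier results of these data known. Single values of 1 mitochondrial gene, which the counts and medians include, and 1 promoter stretch are not reported here.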

Additional observations from a re-analysis of the deposited data

How the results depend on the processing

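The count of 3 genes called in the first comparison became 1 at an adjusted p under 0.01, 1 with the running median over level removed, and 38 with equal CPM totals, where 37 were lower (the last 2 on approximate z values). With Vars added it was 4 at an adjusted p under 0.10 and with the median of all genes at 0. It was 3 when adjusted over genes of at least 3 log2 CPM and 2 without Gars and Kars or without Lars2, and 3 with Aarsd1 and Tarsl2; leaving out Lars2 or the leucine pair was chosen after seeing the data. Equal totals also turned the calls over all genes, of which 6.83% were then higher. The cytosolic median of 0.21 reversed to -1.29 with equal totals and to -0.14 with the running median removed. It was 0.34 with the median of all genes at 0, 0.30 if the logs are natural logs and 0.19 without Gars and Kars. The mitochondrial median of -0.53 became -2.02, -0.40, -0.15 and -0.77 with equal totals, the median at 0, the running median removed and natural logs in turn, and -0.55 without Lars2. In the second comparison the count stayed 0 under every alternative run. With a smallest unadjusted p of 0.614 among the 40 genes, changing the threshold or leaving out genes could not give a call. Under the other scales 6 of the 40 genes lacked a z value and could not be called. The cytosolic median there was 0.14 with equal totals, 0.046 with the running median removed and 0.14 with natural logs, and the mitochondrial one 0.071, 0.020 and 0.044, with 0.038 over genes of at least 3 log2 CPM and 0.019 without Lars2. The pair difference of 0.71 became 0.0033 with the running median removed, 0.70 over pairs of at least 3 log2 CPM and 0.77 without leucine. The cause of these shifts beyond the settings' own construction was not tested. Other weights moved derived levels of Lars2, Nars and Kars by at most 14.8%. No paired analysis was possible because the table has no value per library; leaving out replicates, DESeq2 and a filter on counts were not run for the same reason. Depth per library is unknown, which limits what can be said of genes with a low level such as Wars2.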
